A study of Mus musculus with 4 samples.

Results

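The turnover of inflammation between the first day and the third day after muscle injury was followed by setting all 3029 capture spots of the section taken 3 days post injury (dpi) against all 2667 spots of the section taken at 1 dpi, 5696 of the 10835 spots of the series. Spatial RNA was captured on fresh frozen sections of the tibial muscle of mice, 1 section each from uninjured muscle and from muscle at 1, 3 and 7 dpi. All mice, uninjured ones included, carried the genotype Nse-Bmp4 on a C57BL/6 background and were 6 to 8 weeks old, and the injury was an injection of cardiotoxin, a snake venom toxin that destroys myofibres. The transgene puts the mouse Bmp4 cDNA behind a neuron-specific enolase promoter of the rat, and these mice form bone inside muscle after injury. The labels say that the muscles of a group were mixed, 3 to a group, without saying how these map onto a section. With 1 section per day, animal, section and day cannot be told apart, no test was possible, and every interval below covers counting error only.

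Damaged muscle is entered by neutrophils within hours, and these are followed by monocytes that turn into macrophages, engulf dead fibres and lipid, and then hand over to repair. Muscle stem cells divide, differentiate and fuse into new fibres that at first use embryonic forms of the contractile proteins. Stromal progenitors lay down a transient matrix, and in the presence of excess BMP signal they can enter cartilage and bone formation.

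The section at 1 dpi was the shallower, with 16777832 UMIs (unique molecular identifiers, each standing for a captured transcript) against 56113066 at 3 dpi, and medians of 6322 and 16087 UMIs per spot. Levels are given as CPM, the UMIs of a gene scaled to a common total per section. Because 19.2% of the spots at 1 dpi had under 2000 UMIs, shares of spots are given after every spot was thinned to 2000 UMIs, which left out 513 spots at 1 dpi and 9 at 3 dpi. Mitochondrial genes took 17.8% of UMIs at 1 dpi and 11.7% at 3 dpi, and 22 adult myofibre genes took 17.1% and 10.5%. Spot barcodes stand for positions of the array, and 2075 of them occurred in both sections. A spot covers several cells, so fewer cells of a type and less RNA per cell cannot be told apart.

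Of 10508 genes with at least 5 CPM in either section, 1558 (14.8%) were at least 2-fold higher at 3 dpi and 162 (1.54%) at least 2-fold lower. At 4-fold, 351 genes were higher and 25 lower. Random removal of UMIs from the section at 3 dpi down to the total at 1 dpi left the counts at 1595 of 10523 genes higher (15.2%) and 163 lower (1.55%). The median gene was higher at 3 dpi by 0.37 on the log2 scale. TMM factors, which centre the bulk of genes, shifted every log2 ratio by -0.38 and gave 834 genes higher (7.94%) and 360 lower (3.43%). List medians are therefore given from CPM and, after it, relative to the TMM shift. At the matched total, 17277 genes were detected at 1 dpi and from 17893 to 17996 at 3 dpi.

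Among the 2856 genes that were not mitochondrial and reached 50 CPM in either section, the largest ratios belonged to genes of new muscle and of matrix. Myh3, the embryonic myosin heavy chain, measured 1.19 CPM at 1 dpi and 107 at 3 dpi, a log2 ratio of 6.49 (95% interval 5.86 to 7.20). Mymk, the myoblast fusion protein myomaker, measured 1.01 CPM at 1 dpi and 65.2 at 3 dpi (6.01, 5.33 to 6.79). Postn, the matrix protein periostin, measured 23.3 CPM at 1 dpi and 728 at 3 dpi (4.96, 4.82 to 5.11). The uninjured section held 1.73 CPM of Myh3, 10.01 of Mymk and 92.2 of Postn, so the level of Postn at 1 dpi lay below that of uninjured muscle and its level at 3 dpi above it. The others were Cthrc1 (4.78), Sfrp2 (4.76), a secreted Wnt modulator, Tnnt2 (4.47), the cardiac and embryonic troponin T, the small proteoglycan Aspn (3.89), Myl4 (3.77), the embryonic myosin light chain, the pentraxin Ptx3 (3.74), the phospholipid transfer protein Pltp (3.67), Aldh1a2 (3.58), which makes retinoic acid, and Col14a1 (3.52).

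**Figure D1:**
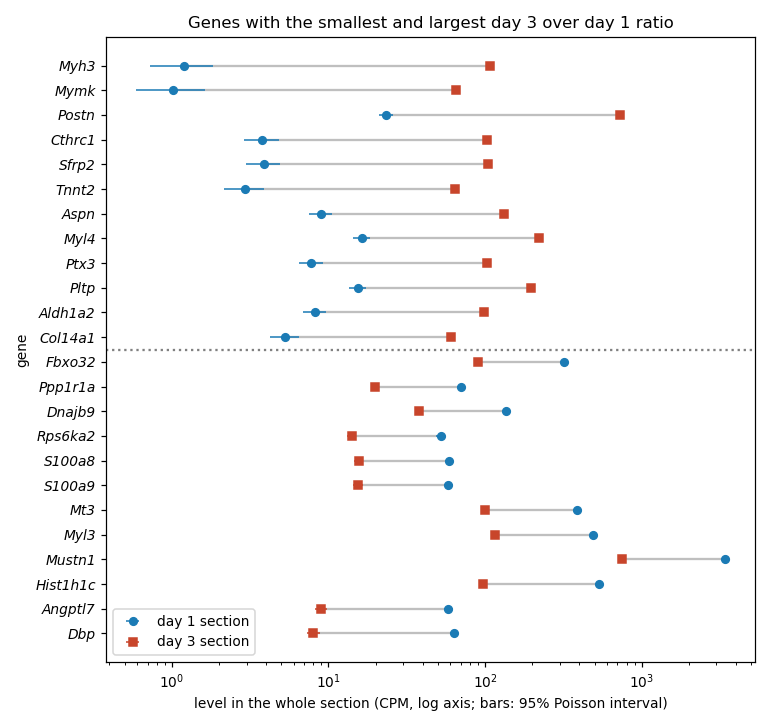
Levels (CPM, log axis) in the 1 dpi section (circles) and the 3 dpi section (squares) of the genes named by rule, 12 at each end of the ratios among genes of at least 50 CPM; bars are 95% Poisson intervals, mostly narrower than the symbols. Above the dotted line all levels are higher at 3 dpi, with Myh3 going from 1.19 to 107 CPM, and below it all are lower, with Mustn1 going from 3408 to 751 CPM.

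The 12 genes at the other end were of several kinds. Mustn1, a nuclear protein of regenerating muscle and skeleton, measured 52.9 CPM in uninjured muscle, 3408 at 1 dpi, 751 at 3 dpi and 259 at 7 dpi, and was 4.54-fold lower at 3 dpi than at 1 dpi. Fbxo32, the ubiquitin ligase atrogin-1 of muscle wasting, measured 321 CPM at 1 dpi and 89.98 at 3 dpi (-1.83), and Dnajb9, a chaperone of the endoplasmic reticulum, 137 CPM at 1 dpi and 37.9 at 3 dpi (-1.85). Mt3, a metallothionein, measured 384 CPM at 1 dpi and 101 at 3 dpi (-1.93). All 4 were thus highest at 1 dpi among the sections. The linker histone Hist1h1c (538 and 97.2 CPM) and Myl3, the slow and cardiac myosin light chain (490.3 and 116 CPM), were likewise highest at 1 dpi. Angptl7 (-2.70), Rps6ka2 (-1.88) and Ppp1r1a (-1.84) also belonged to this group. Dbp, a clock output gene, measured 9.05, 63.7, 8.002 and 96.6 CPM over the 4 sections in order of day. The time of day of collection is not given in the sources used here and its part in the Dbp values was not tested. The last of the 12 were S100a8 and S100a9.

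S100a8 and S100a9 encode calprotectin, the main cytosolic protein of neutrophils. S100a9 measured 0.501 CPM in uninjured muscle, 58.4 at 1 dpi, 15.5 at 3 dpi and 0.574 at 7 dpi, and was 3.78-fold lower at 3 dpi than at 1 dpi (log2 -1.92, -2.05 to -1.79). S100a8 measured 58.8 CPM at 1 dpi and 15.6 at 3 dpi (-1.91). At 2000 UMIs per spot, 9.94% of spots (8.704 to 11.3) had a UMI of S100a9 at 1 dpi and 2.495% (1.96 to 3.103) at 3 dpi, so the transcript was both lower in total and present in fewer spots.

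The neutrophil list held 17 genes, of which 8 reached 5 CPM. Of these 8, 5 were at least 2-fold lower and 1 at least 2-fold higher (6 and none relative to TMM), with a median log2 ratio of -1.54 (-1.92 relative to TMM) beside 0.37 for all genes. A filter of 1 CPM, which took in more members, brought the median to -0.58. Cxcr2, the receptor that draws neutrophils to ELR+ CXC chemokines, was 4.93-fold lower (5.01 and 1.02 CPM), and Mmp9, a gelatinase stored in neutrophil granules, 5.0005-fold lower (18.4 and 3.67 CPM). Slfn4, a schlafen of myeloid cells, was 2.24-fold lower (45.9 and 20.5 CPM). Csf3r, the G-CSF receptor, measured 34.6 CPM at 1 dpi and 20.5 at 3 dpi (-0.75) and Il1r2, the decoy receptor of IL-1, 6.32 CPM at 1 dpi and 5.29 at 3 dpi (-0.26). Lcn2, an iron-scavenging acute phase protein that other cells also make, ran the other way with 10.6 CPM at 1 dpi and 25.5 at 3 dpi (1.27).

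The list as a whole measured 9.16 CPM in uninjured muscle, 249 at 1 dpi, 118 at 3 dpi and 27.4 at 7 dpi. Several of its defining genes had few UMIs in both sections. Ly6g had 1 UMI at 1 dpi and 0 at 3 dpi, both under the floor of 3 UMIs (0.0535 CPM at 3 dpi). The granule genes Ngp, Ltf and Camp had 0, 2 and 1 UMIs at 1 dpi. With 3 dpi downsampled to the 1 dpi total they had 0, 1 and 12, so Camp ran against the list. The order of the shares of spots turned with the thinning, which lowered the depth and also left out spots. With all UMIs and all spots, 58.2% of spots had a UMI of the neutrophil list at 1 dpi and 66.99% at 3 dpi, whereas at 2000 UMIs per spot the shares were 32.2% (30.2 to 34.2) and 19.1% (17.7 to 20.6).

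**Figure D2:**
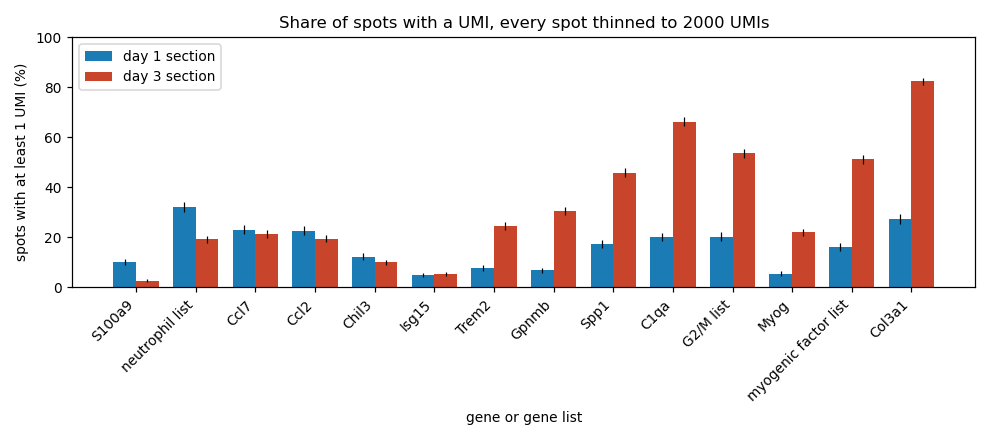
Spots (%) in which a gene or gene list had at least 1 UMI, in the 1 dpi section (blue) and the 3 dpi section (red), with every spot thinned to 2000 UMIs; bars are means over 20 draws, and lines 95% Clopper-Pearson intervals. S100a9 went from 9.94 to 2.495%, Ccl7 from 22.9 to 21.2% and C1qa from 19.97 to 66.2%.

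The CXC chemokines differed gene by gene. Ppbp, a platelet chemokine and neutrophil attractant, measured 23.4 CPM at 1 dpi and 0.695 at 3 dpi, 33.6-fold lower at 3 dpi (-5.07, -5.58 to -4.59). Pf4, the other platelet chemokine, which macrophages also make, measured 571 CPM at 1 dpi and 479 at 3 dpi (-0.25). The platelet receptor genes Gp1ba, Gp9, Gp1bb and Itga2b had 0, 0, 2 and 25 UMIs at 1 dpi. With 3 dpi downsampled to the 1 dpi total they had 0, 1, 8 and 55, so none ran with Ppbp. Cxcl3, below the 5 CPM needed for the comparison, had 69 UMIs at 1 dpi and 22 at 3 dpi, that is 4.11 and 0.392 CPM. The neutrophil attractants Cxcl5 (22.5 and 26.04 CPM) and Cxcl1 (6.62 and 7.52 CPM) were less than 2-fold apart, and Cxcl2 lay at 1.31 and 1.12 CPM. In contrast, Cxcl16 was 10.4-fold higher at 3 dpi (9.77 and 102 CPM), Cxcr4 7.48-fold (6.85 and 51.3 CPM) and Cxcl14 6.55-fold (67.1 and 439.9 CPM). Cxcl12, the stromal ligand of Cxcr4, was 2.04-fold higher, and the interferon-induced Cxcl9 and Cxcl10 were 4.06-fold and 2.75-fold higher. In all, 6 of 11 members were at least 2-fold higher and 2 lower. Cxcl9, with 23 UMIs at 1 dpi, was under 5 CPM there and was compared through its 3 dpi level only. Ppbp was compared through its 1 dpi level only.

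The CC chemokines that recruit monocytes were nearly level between the sections. Ccl2 measured 147 CPM at 1 dpi and 151 at 3 dpi (log2 0.04, -0.02 to 0.11) and Ccl7 164 CPM at 1 dpi and 162 at 3 dpi (-0.01, -0.08 to 0.05). Their receptor Ccr2 measured 108 CPM at 1 dpi and 113 at 3 dpi (0.06, -0.02 to 0.14). Uninjured muscle held 0.957 CPM of Ccl2, 0.182 of Ccl7 and 3.24 of Ccr2. Both injured sections therefore stood far above it, while a difference of 2-fold between them lay outside each interval.

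Other members of the family moved apart. The macrophage chemokines Ccl6 (732 and 466 CPM) and Ccl9 (394 and 290.5 CPM) were lower at 3 dpi by less than 2-fold. Ccl5 was 6.15-fold higher (2.56 and 15.8 CPM) and Ccl8 2.14-fold (118 and 252 CPM). In all, 3 of 14 members compared (beside 14.8% of all genes) were at least 2-fold higher and none 2-fold lower, whereas relative to TMM 1 was higher and 2 lower. The list median was 0.11 (-0.27 relative to TMM, a change of sign). Recruited monocyte genes were level as well: their summed level was 348 CPM at 1 dpi and 414 at 3 dpi, and only Vcan, the proteoglycan versican, passed 2-fold, at 2.55-fold higher, and none relative to TMM. Chil3 measured 67.4 CPM at 1 dpi and 63.5 at 3 dpi (-0.09) and Ly6c2, the Ly6C antigen of inflammatory monocytes, 33.9 CPM at 1 dpi and 61.1 at 3 dpi (0.85).

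Cytokines themselves were sparse. Il1b measured 14.96 CPM at 1 dpi and 21.3 at 3 dpi (0.51), Tnf 1.79 CPM at 1 dpi and 1.18 at 3 dpi and Il6 0.536 CPM at 1 dpi and 4.03 at 3 dpi. Tnf and Il6 stayed below the 5 CPM needed for the comparison. Of the 11 IL-1 and TNF genes compared, 6 were at least 2-fold higher, or 4 relative to TMM, and none 2-fold lower (median 1.05, 0.67 relative to TMM). The count depends in part on the filter. Tnfaip6, Casp1 and Nfkbiz, with 42, 59 and 66 UMIs at 1 dpi, were under 5 CPM there and were compared through their 3 dpi level only. The 6 included Tnfaip6, a hyaluronan-binding protein, at 8.86-fold (2.503 and 22.2 CPM), the IL-1 receptor Il1r1 at 4.27-fold (8.76 and 37.4 CPM), Casp1 at 3.18-fold and the IL-1 antagonist Il1rn at 2.36-fold. Among the others, the TNF receptor Tnfrsf1a (0.72), the NF-kB inhibitor Nfkbia (0.43) and the TNF target Tnfaip3 (-0.26) stayed within 2-fold. Of 9 IL-6 family genes compared, 2 were at least 2-fold higher, beside 14.8% of all genes, and none lower. They were the feedback inhibitor Socs3 (29.7 and 102 CPM) and the oncostatin M receptor Osmr (12.3 and 26.1 CPM). Relative to TMM 1 of 9 was higher, beside 7.94% of all genes. The list median was 0.70 (0.32 relative to TMM).

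Macrophage genes were the main immune RNA of the 3 dpi section. Of 14 pan-macrophage genes, 10 were at least 2-fold higher and none lower (median 1.54, 1.16 relative to TMM). Lyz2, lysozyme, measured 137 CPM in uninjured muscle, 766 at 1 dpi, 4222 at 3 dpi and 907 at 7 dpi. Ctss, the protease cathepsin S, measured 144 CPM at 1 dpi and 1060.4 at 3 dpi (7.35-fold), Adgre1, the F4/80 antigen, 35.1 CPM at 1 dpi and 156 at 3 dpi (4.45-fold), and Csf1r, the receptor that macrophages need to survive, 70.5 CPM at 1 dpi and 235 at 3 dpi (3.33-fold). Fcgr1 (0.67), Laptm5 (0.84), Msr1 (0.49) and Itgam (0.76) stayed under 2-fold. The summed level of the list was 2097 CPM at 1 dpi and 8375 at 3 dpi, and at 2000 UMIs per spot 86.9% of spots had a UMI of it at 1 dpi against 98.1% at 3 dpi.

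The genes by which macrophages handle engulfed lipid included the largest of these ratios. Apoe, the carrier of exported cholesterol, measured 513 CPM at 1 dpi and 5886 at 3 dpi, 11.5-fold higher (3.52, 3.49 to 3.55). Gpnmb, a lysosomal glycoprotein, was 8.41-fold higher (37.5 and 315 CPM), Spp1, osteopontin, 6.85-fold (141 and 969 CPM) and the lipid receptor Trem2 4.96-fold (39.2 and 195 CPM). The cholesterol exporters Abca1 and Abcg1 were 6.07-fold and 3.56-fold higher, and the fatty acid chaperone Fabp5 3.98-fold. The lipid droplet coat Plin2 (194 and 182 CPM) and the lipase Lpl (174 and 167 CPM) were level. In all, 8 of 14 members were at least 2-fold higher and none lower by either scaling (medians 1.91 and 1.53). At 2000 UMIs per spot, Spp1 was found in 17.2% (15.6 to 18.8) and 45.7% (43.9 to 47.5) of spots, and Gpnmb in 6.701% (5.67 to 7.82) and 30.5% (28.9 to 32.2).

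Arg1, arginase, which is often used to mark alternatively activated macrophages, is outside the rule for named genes and was picked after its values were seen. It measured 0.0912 CPM in uninjured muscle, 31.7 at 1 dpi, 5.26 at 3 dpi and 0.0956 at 7 dpi, and was 6.03-fold lower at 3 dpi than at 1 dpi (-2.59, -2.80 to -2.38). Of the study's own M2 macrophage genes, 3 of 5 were at least 2-fold higher: Csf1r, Tgfb1 (22.9 and 64.3 CPM) and the mannose receptor Mrc1 (78.9 and 189 CPM). Relative to TMM 2 of 5 were. The other members, Cd163 (0.77) and Retnla (0.16, -0.03 to 0.35), stayed within 2-fold. The study chose its lists in its own work on this model, so their direction is not independent. Of the study's M1 macrophage genes, Fcgr1 (0.67) and Tlr4 (0.48) could be compared and neither passed 2-fold. Genes of resident macrophages were higher too, 7 of 12 by at least 2-fold, or 5 relative to TMM, beside 14.8% and 7.94% of all genes. Among them Lyve1 measured 9.32 CPM in uninjured muscle, 2.15 at 1 dpi and 18.4 at 3 dpi, Folr2, a folate receptor, 22.999, 27.7 and 93.2 CPM, and Stab1, a scavenger receptor, 47.9, 89.3 and 310.2 CPM.

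All 3 chains of complement C1q were about equally higher, with C1qa at 122 CPM at 1 dpi and 816 at 3 dpi (6.67-fold), C1qb at 179 CPM at 1 dpi and 1069 at 3 dpi (5.95-fold) and C1qc at 96.4 CPM at 1 dpi and 619.9 at 3 dpi (6.43-fold). Of 15 complement genes, 10 were at least 2-fold higher and none lower (median 1.46, 1.08 relative to TMM). Of 17 lysosome genes, 14 were at least 2-fold higher and none lower (median 1.23, 0.85 relative to TMM), among them the protease Ctsb (1189 and 3437 CPM) and Atp6v0d2, a proton pump subunit of macrophages and osteoclasts (9.93-fold). Relative to TMM the lysosome count was 7. Of 13 genes of dead cell uptake, 7 were at least 2-fold higher, or 3 relative to TMM, and none 2-fold lower (median 1.06, 0.68 relative to TMM), with the receptors Axl at 2.44-fold and Mertk at 2.204-fold. The bridging protein Mfge8 was the exception in sign, at 121 CPM at 1 dpi and 88.7 at 3 dpi (-0.44).

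Antigen presentation by MHC class II was higher throughout, with 7 of 7 genes at least 2-fold higher (median 1.51, 1.13 relative to TMM). The invariant chain Cd74 measured 227 CPM at 1 dpi and 673 at 3 dpi and the class II transactivator Ciita 1.91 CPM at 1 dpi and 7.98 at 3 dpi (4.19-fold). The 20 interferon-stimulated genes compared stayed within 2-fold, at a median of 0.48 (0.10 relative to TMM). Isg15 measured 24.2 CPM at 1 dpi and 35.7 at 3 dpi (0.56) and Irf7, the regulator of interferon genes, 43.8 CPM at 1 dpi and 83.7 at 3 dpi (0.93), and both sections were above the 7.75 and 5.81 CPM of uninjured muscle. Genes of heme and iron handling were near level, with heme oxygenase Hmox1 at 79.2 CPM at 1 dpi and 63.96 at 3 dpi (-0.31). Of the 11 compared, 1 was at least 2-fold higher, beside 14.8% of all genes, and none relative to TMM.

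Lymphocyte RNA was scarce. The 15 T and NK cell genes summed to 2.21 CPM at 1 dpi and 22.3 at 3 dpi, against 2.097 CPM in uninjured muscle, and Gzma, a granzyme, was the 1 member that reached 5 CPM (5 and 296 UMIs, 0.298 and 5.28 CPM). Cd3e, Cd4 and Cd8a each had 0 UMIs at 1 dpi, which allows up to 0.179 CPM, and 32, 59 and 34 UMIs at 3 dpi. A UMI of the T and NK cell list was found in 0.483% (0.223 to 0.852) and 3.503% (2.88 to 4.23) of spots at 2000 UMIs. Of B cell genes only Ighm could be compared (-0.26). Mast cell and eosinophil genes stayed below 5 CPM, with Epx at 0 UMIs in both sections. Of the skin keratins Krt14 had 0 UMIs in both, whereas Krt10 was detected in both (log2 ratio 0.52). Krt10 held 98.0% of the skin epithelium list at 1 dpi and 98.5% at 3 dpi.

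**Figure D3:**
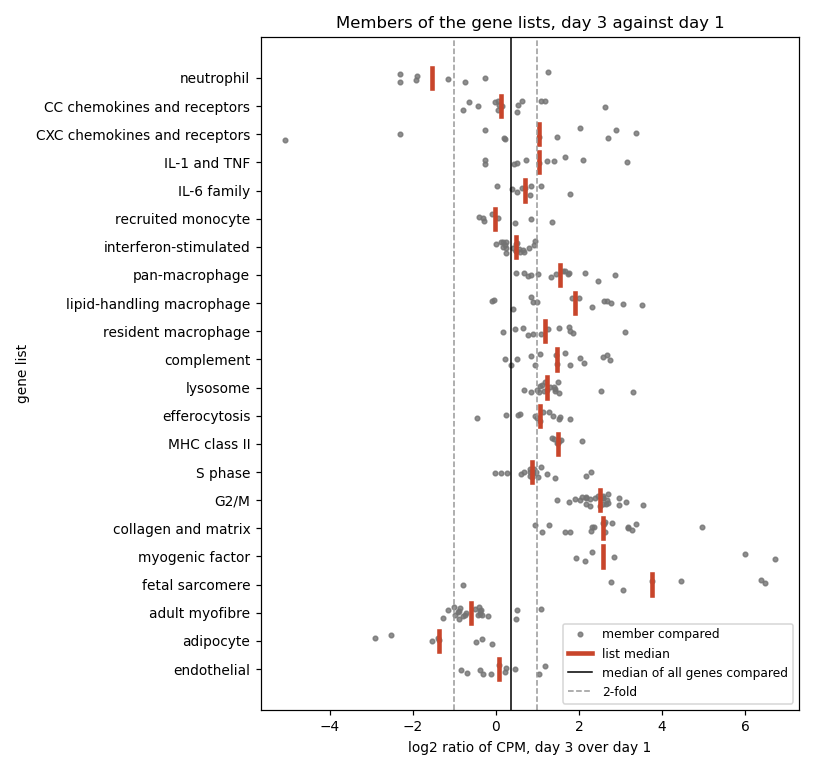
Log2 ratio of CPM, 3 dpi over 1 dpi, of the members compared (points, 1 per gene) of 22 gene lists, with the list median (red bar), the median of all genes compared (black line) and 2-fold (dashed lines). Nearly all neutrophil members lie left of the black line, the recruited monocyte and CC chemokine members around it, and all G2/M members right of the dashed line at 2-fold.

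Cell division genes set mitosis apart from DNA replication. All 25 genes of G2 and mitosis (G2/M) were at least 2-fold higher at 3 dpi, also relative to TMM (medians 2.52 and 2.14). Ccnb2 and Ccnb1, the mitotic cyclins, measured 1.85 CPM at 1 dpi and 21.5 at 3 dpi (11.6-fold) and 3.52 CPM at 1 dpi and 30.9 at 3 dpi (8.79-fold). Plk1, a kinase of mitotic entry, measured 2.74 CPM at 1 dpi and 21.6 at 3 dpi (7.87-fold), and the proliferation antigen Mki67 8.28 CPM at 1 dpi and 37.5 at 3 dpi (4.52-fold). Ccnb2, Ccnb1, Plk1 and other members were under 5 CPM at 1 dpi and were compared through their 3 dpi level only. Of the 19 S phase genes (median 0.87, 0.49 relative to TMM), 6 were at least 2-fold higher, beside 14.8% of all genes. Relative to TMM 3 of 19 were higher, beside 7.94%. Among these the cyclin Ccne1 measured 3.52 CPM at 1 dpi and 17.1 at 3 dpi and the ribonucleotide reductase subunit Rrm2 17.2 CPM at 1 dpi and 77.6 at 3 dpi, while Pcna, the replication clamp, measured 109.7 CPM at 1 dpi and 119.7 at 3 dpi (0.13).

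The order over the sections differed as well. The S phase list summed to 137 CPM in uninjured muscle, 381 at 1 dpi and 659.6 at 3 dpi, and the G2/M list to 117, 128 and 670.2. At 1 dpi the S phase list thus stood above uninjured muscle while the G2/M list was near it. At 2000 UMIs per spot, 20.2% (18.5 to 21.95) and 53.6% (51.8 to 55.4) of spots had a UMI of the G2/M list, against 49.2% and 56.7% for the S phase list.

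Since the G2/M members moved together, their promoters are shown. RefSeq promoter windows of 300 bases around the annotated start (build GRCm38.p6, the assembly also named mm10) were found for 21 of the 25 genes. A CHR element (TTTGAA) and a CCAAT box (CCAAT), both sought on either strand, are the known promoter elements of genes expressed in G2 and mitosis. Both occurred in the windows of 15 of these 21 genes (71.4%), against 7.97% of 27025 genes with a window. For the S phase list they occurred in 1 of 15 genes, and the E2F motif TTCCCGC in 6 of 15 (40.0%), against 0 of 21 G2/M genes and 5.29% of all genes. The letters describe these windows and show no binding. The 4 genes with the largest ratios among those with both elements are given on their own strand, with each match to either element in capitals, for Ccnb2 (chr9:70421505-70421804, minus strand), Plk1 (chr7:122159185-122159484, plus strand), Hmmr (chr11:40733388-40733687, minus strand), a hyaluronan receptor of the mitotic spindle, and the kinase Aurka (chr2:172370521-172370820, minus strand).
Ccnb2: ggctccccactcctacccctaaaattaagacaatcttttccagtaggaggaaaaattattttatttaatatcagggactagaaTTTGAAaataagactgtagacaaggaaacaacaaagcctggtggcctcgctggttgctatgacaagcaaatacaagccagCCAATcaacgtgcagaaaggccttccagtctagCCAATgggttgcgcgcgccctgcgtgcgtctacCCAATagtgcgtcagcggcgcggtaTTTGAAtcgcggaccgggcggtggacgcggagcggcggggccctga
Plk1: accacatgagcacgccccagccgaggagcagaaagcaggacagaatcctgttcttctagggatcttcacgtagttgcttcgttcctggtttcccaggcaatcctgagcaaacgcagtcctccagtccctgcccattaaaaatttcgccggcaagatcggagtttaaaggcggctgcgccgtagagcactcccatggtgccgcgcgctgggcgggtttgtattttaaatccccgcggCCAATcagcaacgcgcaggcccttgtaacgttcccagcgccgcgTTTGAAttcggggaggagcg
Hmmr: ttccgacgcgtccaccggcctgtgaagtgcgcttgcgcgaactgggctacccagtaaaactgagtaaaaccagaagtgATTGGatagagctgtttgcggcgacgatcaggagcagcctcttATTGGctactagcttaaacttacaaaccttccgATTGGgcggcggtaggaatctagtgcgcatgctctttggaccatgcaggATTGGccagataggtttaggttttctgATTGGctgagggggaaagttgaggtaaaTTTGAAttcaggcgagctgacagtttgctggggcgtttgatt
Aurka: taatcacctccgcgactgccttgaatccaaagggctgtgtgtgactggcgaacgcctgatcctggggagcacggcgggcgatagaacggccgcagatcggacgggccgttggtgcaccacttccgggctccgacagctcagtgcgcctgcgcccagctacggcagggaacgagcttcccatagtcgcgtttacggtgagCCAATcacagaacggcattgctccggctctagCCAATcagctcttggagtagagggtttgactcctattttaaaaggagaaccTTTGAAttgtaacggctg

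These 4 genes were 11.6-fold, 7.87-fold, 7.85-fold and 6.47-fold higher at 3 dpi. The window of Ccnb2 held 2 CHR elements and 3 CCAAT boxes, of Plk1 1 and 1, of Hmmr 1 and 5 and of Aurka 1 and 2.

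Muscle regeneration was seen at 3 dpi in factors, fusion genes and embryonic sarcomere genes. The regulators Myod1 and Myog measured 52.3 CPM at 1 dpi and 198 at 3 dpi (3.79-fold) and 31.5 CPM at 1 dpi and 225 at 3 dpi (7.14-fold), against 41.4 and 51.6 CPM in uninjured muscle. Mymx, the micropeptide that completes fusion with Mymk, had 7 UMIs at 1 dpi and 2463 at 3 dpi, 0.417 and 43.9 CPM (log2 6.72, 5.67 to 8.03). Pax7, the stem cell factor, measured 1.25 CPM at 1 dpi and 4.74 at 3 dpi and stayed below the comparison filter. All 6 myogenic genes compared were at least 2-fold higher. Of these Mymk, Mymx and Myf5, with 17, 7 and 23 UMIs at 1 dpi, were under 5 CPM there and were compared through their 3 dpi level only. At 2000 UMIs per spot, Myog was found in 5.37% (4.47 to 6.42) of spots at 1 dpi and 21.9% (20.4 to 23.4) at 3 dpi.

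Of the 7 fetal sarcomere genes, 6 were at least 2-fold higher, with Chrng, the fetal acetylcholine receptor subunit, at 5 and 1393 UMIs (0.298 and 24.8 CPM). Chrng, Myh3, Myh8 and Tnnt2, with 5, 20, 17 and 49 UMIs at 1 dpi, were compared through their 3 dpi level only. Actc1, the cardiac actin, ran against the 6 with 6066 CPM in uninjured muscle, 246 at 1 dpi and 143 at 3 dpi. Adult myofibre genes were lower at the median (-0.60, -0.98 relative to TMM). By CPM 3 of 22 were at least 2-fold lower, namely Pvalb (-1.27), the calcium buffer of fast fibres, Myoz1 (-1.14) and Mylpf (-1.02), and the fast myosin Myh1 was higher (1.08). Relative to TMM 11 were lower and none higher. The small heat shock protein Cryab of muscle measured 648 CPM in uninjured muscle, 6631 at 1 dpi, 2760.2 at 3 dpi and 644 at 7 dpi, 2.402-fold lower at 3 dpi than at 1 dpi.

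The summed collagen and matrix list measured 10032 CPM in uninjured muscle, 2008 at 1 dpi and 9521 at 3 dpi, thus from below to near the uninjured level. Its members differed. Postn, Plod2 (5.86 CPM uninjured and 30.1 at 3 dpi) and Thbs2 (9.82 and 88.3 CPM) stood above uninjured muscle at 3 dpi. Col1a1 measured 2253 CPM in uninjured muscle, 214 at 1 dpi, 1309 at 3 dpi and 10599.9 at 7 dpi, and Col3a1 2411, 222, 2015 and 3417 CPM. Of 18 collagen and matrix genes, 17 were at least 2-fold higher at 3 dpi than at 1 dpi (median 2.59, 2.21 relative to TMM), and the other, Col6a3, had a log2 ratio of 0.94. The matricellular genes Tnc (4.97, 25.9 and 129.7 CPM) and Thbs1 (9.94, 42.02 and 216 CPM) were instead above uninjured muscle on both days. At 2000 UMIs per spot, Col3a1 was found in 27.3% of spots at 1 dpi and 82.3% at 3 dpi.

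Genes of fibro-adipogenic progenitors, the stromal cells of muscle, were at least 2-fold higher for 8 of 11 (median 1.49, 1.11 relative to TMM), with Pdgfra, their defining receptor, at 17.8 CPM at 1 dpi and 44.6 at 3 dpi and Mfap5, a microfibril protein, at 32.1 CPM at 1 dpi and 230.4 at 3 dpi. Of the study's MSC (mesenchymal stem cell) genes 4 of 6 passed 2-fold, beside 14.8% of all genes. Relative to TMM 1 of 6 did, beside 7.94% of all genes. Scx, the tendon transcription factor, measured 20.4 CPM at 1 dpi and 79.8 at 3 dpi (3.92-fold). Of 8 BMP pathway genes compared, 4 were at least 2-fold higher, beside 14.8% of all genes, and none 2-fold lower. Relative to TMM 2 of 8 were higher, beside 7.94%. Among the 4, Nog had 48 UMIs at 1 dpi, under 5 CPM, and was compared through its 3 dpi level only. The antagonist Nog was 6.55-fold higher (2.86 and 18.7 CPM), the target Id2 3.62-fold, the inhibitor Smad7 2.39-fold and the receptor Acvr1 2.27-fold, while the receptors Bmpr1a (-0.05) and Bmpr2 (0.45) and the targets Id1 (0.55) and Id3 (0.95) stayed within 2-fold. Bmp4, which the transgene also encodes, measured 2.68 CPM at 1 dpi and 4.99 at 3 dpi and stayed below the comparison filter, and counts of the gene need not separate the transgene from the native copy.

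Several defining genes of cartilage and bone were close to 0 on both days, and others were not. Col2a1, the cartilage collagen, had 2 UMIs at 1 dpi and 5 at 3 dpi, Acan 4 and 6, and Ibsp, a bone matrix protein, 0 and 1, before 618, 292 and 217 CPM at 7 dpi. Sox9, the cartilage transcription factor, measured 27.3 CPM at 1 dpi and 15.6 at 3 dpi (-0.80), and Runx2, the bone transcription factor, 1.37 CPM at 1 dpi and 10.1 at 3 dpi (7.37-fold, 23 and 567 UMIs). Comp, a matrix protein of cartilage and tendon, measured 9.18 CPM at 1 dpi and 34.4 at 3 dpi (1.91), and Alpl, alkaline phosphatase, 4.11 CPM at 1 dpi and 8.34 at 3 dpi (1.02).

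**Figure D4:**
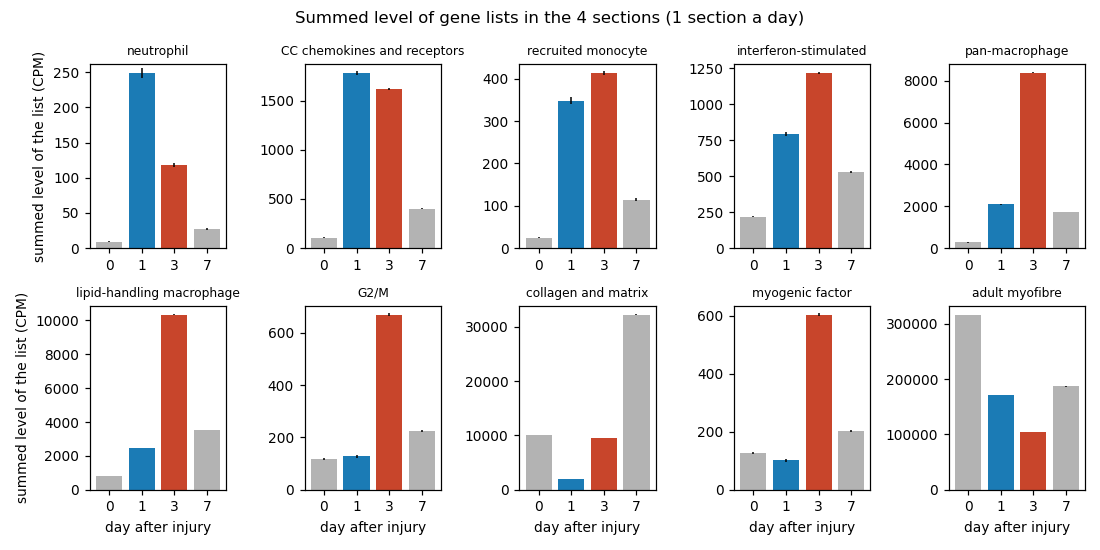
Summed level (CPM) of 10 gene lists in the sections at day 0 (uninjured), 1, 3 and 7, each axis from 0; blue and red mark the pair compared and black lines 95% Poisson intervals. The neutrophil list is highest at 1 dpi (249 CPM), the CC chemokine and recruited monocyte lists are close between 1 and 3 dpi, the macrophage, G2/M and myogenic lists are highest at 3 dpi, and collagen and matrix at 7 dpi (32262 CPM).

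Lists of other tissue cells moved beside these. Of 8 adipocyte genes compared, 5 were at least 2-fold lower at 3 dpi (median -1.38, -1.76 relative to TMM), with the lipid droplet protein Cidec at 23.7 CPM at 1 dpi and 4.099 at 3 dpi and the adipokine Adipoq at 21.5 CPM at 1 dpi and 7.34 at 3 dpi. The count of endothelial genes turned with the scaling: 2 of 11 (beside 14.8% of all genes) were at least 2-fold higher by CPM (Cldn5 and Tek) and none lower, and relative to TMM none was higher and 2 were lower, with medians of 0.08 and -0.29. Of 4 Schwann cell genes 1 was at least 2-fold lower, and 2 relative to TMM. Haemoglobin and other red cell genes had a median of -0.38 (-0.76 relative to TMM). The part of these tissue differences in the ratios of the immune genes was not tested across sections, and the next comparison limits it to spots of like myofibre content.

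Spots were placed in common classes by the share of their UMIs from the 22 adult myofibre genes: under 5% (167 spots at 1 dpi and 770 at 3 dpi), 5 to 15% (1159 and 894) and over 15% (1341 and 1365). From 71 to 371 spots of a section lay within 10% of a class edge. Class ratios are from CPM within the class, with no TMM shift and no median of all genes beside them. The neutrophil list was lower at 3 dpi in each class, from 1165 to 179 CPM in the spots poorest in myofibre RNA (log2 -2.71, -2.83 to -2.58), 308 to 91.4 in the middle class (-1.75) and 162 to 76.7 in the richest (-1.08). S100a9 gave -3.00, -2.77 and -2.70, and Arg1 -3.51, -3.56 and -3.48. For both genes each class lay further from 0 than the whole sections did. With 3 classes of equal spot number in each section, ordered by myofibre share, the neutrophil list gave -1.57, -1.62 and -0.64, S100a9 -2.05, -2.90 and -2.52 and Arg1 -3.20, -3.19 and -3.25. These equal classes do not match the days in myofibre share. In the poorest, myofibre genes took 8.00% of UMIs at 1 dpi and 3.10% at 3 dpi.

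Within classes the chemokines were no longer level. In the spots poorest in myofibre RNA the CC chemokine list went from 8765 to 2602 CPM (-1.75, -1.79 to -1.71) and Ccl7 from 935 to 259 CPM (-1.85). In the richest class Ccl7 was slightly higher, at 72.6 and 88.3 CPM (0.28). By equal classes the CC chemokine list gave -0.64, -0.54 and -0.32 and Ccl7 -0.76, -0.30 and 0.46, the same signs with smaller values in the poorest class. The recruited monocyte list was lower in each class (-1.12, -0.72 and -0.25), as was Chil3 (-1.42, -1.26 and -0.60), though by equal classes the list gave -0.22, -0.48 and 0.09. The interferon-stimulated list was lower in the poorest class (-0.71) and level in the others (-0.03 and 0.04). By equal classes, where myofibre share differs between the days, the poorest class gave 0.33, so its direction rests on how classes are cut.

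The summed level of the pan-macrophage list was higher at 3 dpi in every class (1.06, 1.16 and 0.76). So were those of the lipid-handling (1.02, 1.25 and 1.13), complement, G2/M, myogenic factor, and collagen and matrix lists. Median members were lower than these sums, at 0.53, 0.59 and 0.47 for pan-macrophage and 0.55, 0.52 and 0.79 for lipid-handling. In whole sections Lyz2 held 36.5% of the pan-macrophage sum at 1 dpi and 50.4% at 3 dpi. Apoe held 56.9% of the lipid-handling sum at 3 dpi. In the poorest class the complement sum was higher (0.69) while its median member was lower (-0.19). The list of dead cell uptake was lower there (3435 and 2347 CPM, -0.55) and higher in the others (0.35 and 0.60), and by equal classes it was higher in all (0.51, 0.63 and 0.65). Gpnmb gave 2.98, 1.40 and 2.03. The resident macrophage list, higher in the whole section, was lower in the poorest class (-0.34) and higher in the others (0.66 and 1.15), and by equal classes it was higher in all (0.79, 0.89 and 1.26). The study's M2 list likewise gave -0.24, 0.85 and 1.01, and by equal classes 0.99, 0.97 and 1.11. The poorest class at 1 dpi held 167 spots with a median of 2964 UMIs and was rich in fat, vessel and nerve RNA, with 5451 CPM of adipocyte genes against 385 at 3 dpi, 1121 against 347 of endothelial and 662 against 177 of Schwann cell genes. The part of that tissue in the ratios of the poorest class was not tested.

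**Figure D5:**
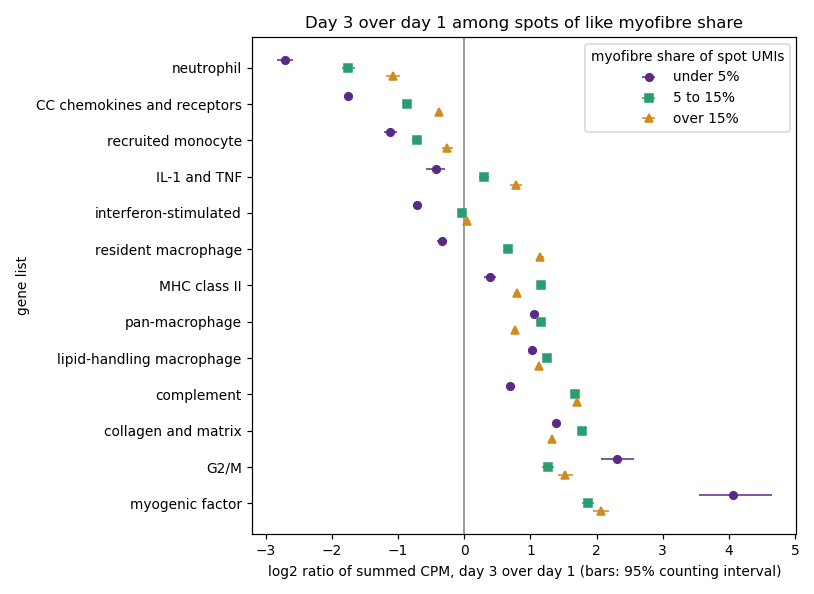
Log2 ratio of summed CPM, 3 dpi over 1 dpi, of 13 gene lists within spots of under 5% (circles), 5 to 15% (squares) and over 15% (triangles) adult myofibre UMIs; bars are 95% counting intervals. The neutrophil, CC chemokine and recruited monocyte lists lie left of 0 in all classes, the pan-macrophage, lipid-handling, complement, collagen, G2/M and myogenic lists right of it in all classes, and the IL-1 and TNF and resident macrophage lists on both sides.

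The spread over spots changed too. At 2000 UMIs per spot, Spearman's rho between the pan-macrophage and adult myofibre lists was -0.436 at 1 dpi and -0.831 at 3 dpi (2154 and 3020 spots, given as a description because spots share a library). Between the pan-macrophage and lipid-handling lists it was 0.537 and 0.845, with G2/M 0.0915 and 0.529, and with collagen and matrix 0.148 and 0.6898. With the neutrophil list it was 0.3503 and 0.153. The 10% of spots richest in the G2/M list held 62.1% of its UMIs at 1 dpi and 39.98% at 3 dpi, and for the neutrophil list the shares were 57.1% and 60.8%. All these values mix the level of a list with its spread, since sparse lists give weak correlations.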

How the data were processed

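Each deposited matrix held raw counts, the UMIs of a gene in a spot, which the authors obtained with Space Ranger (version 1.2.0 and build mm10 per the file headers and the submitters' processing notes; the study's methods name a later version). All 4 sections, 32285 features and 10835 spots were used as deposited; spot positions and images were not used here. Spots can hold several cells, so no doublet caller or deconvolution was run. Counts were summed over spots and scaled to CPM. Log2 ratios have exact conditional intervals, CPM exact Poisson intervals and shares of spots Clopper-Pearson intervals, all at 95% and for counting error only. Counts below 3 UMIs were set to 3 before a ratio was taken. With 1 section per day no test was run, and "called" means a 2-fold ratio. Genes needed 5 CPM in either section, so some list members were compared through the level of 1 section only. For such members the direction of the ratio was set by the filter. Downsampling and thinning to 2000 UMIs used 20 seeded draws.

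Named genes were the 12 largest and 12 smallest ratios among genes of at least 50 CPM, and members of 45 gene lists (506 symbols, 504 among the features). The comparison, its lists and rules were chosen with earlier results of these data known. Alternatives were TMM (edgeR 4.0.16), size factors (DESeq2 1.42.0), library totals that leave out mitochondrial, haemoglobin and myofibre genes, filters of 1 and 20 CPM, spots of at least 2000 UMIs, and equal weight per spot. Scripts ran under R 4.3.3 and Python 3.11.15 with pandas 2.3.3, SciPy 1.17.1, matplotlib 3.10.9 and NumPy 2.4.6, and calculations were tested on simulated data. Promoter sequences are from RefSeq (GRCm38.p6). Values of some list members are not reported here.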

Additional observations from a re-analysis of the deposited data

How the results depend on the processing

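No paired analysis was possible because each day has 1 section. The number of genes at least 2-fold higher was 834 with TMM, 824 with size factors, 1001 when mitochondrial, haemoglobin and myofibre genes were dropped from the total, 970 with equal weight per spot, 2344 with a filter of 1 CPM and 805 with 20 CPM. The number lower was 360, 374 and 275 under the same 3 scalings, and 285 and 89 under the 2 filters. In that order of scalings, the medians were -1.92, -1.93 and -1.80 for the neutrophil list, 1.16, 1.14 and 1.28 for pan-macrophage, 1.53, 1.52 and 1.65 for lipid-handling, 0.10, 0.086 and 0.22 for interferon-stimulated, 2.14, 2.12 and 2.26 for G2/M, 2.21, 2.19 and 2.33 for collagen and matrix, and -0.98, -0.9995 and -0.86 for adult myofibre genes. For IL-1 and TNF size factors gave 0.65. These scalings add 1 constant to every log2 ratio, which by construction is the whole of the change. Equal weight per spot gave -1.97 for neutrophil, 1.12 for pan-macrophage, 1.41 for lipid-handling, 0.052 for interferon-stimulated, 2.09 for G2/M, 2.09 for collagen and matrix and -0.25 for adult myofibre genes. With only spots of at least 2000 UMIs the medians were -0.9986 for neutrophil, 1.60 for pan-macrophage and -0.62 for adult myofibre genes; with filters of 1 and 20 CPM the neutrophil median was -0.58 and -1.16, over a different number of members. The cause of the changes with spot weights was not tested. The medians of the CC chemokine, heme and iron, immediate early, hypoxia and metallothionein, endothelial and smooth muscle lists changed sign between scalings, as did, with other filters or spot weights, those of the recruited monocyte, B cell and heat shock lists. In the spots poorest in myofibre RNA, classes of equal spot number turned IL-1 and TNF from -0.43 to 0.42 and the interferon-stimulated list from -0.71 to 0.33. Those equal classes do not match the days in myofibre share. Depth limits genes of few UMIs at 1 dpi (Ly6g, Mymx, Chrng and T cell genes), and 1 section per day leaves the spread between animals unknown.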

Other observations

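Other genes at least 4-fold lower at 3 dpi lay below the 50 CPM of the rule for named genes and were picked after their values were seen. Mt4, a metallothionein, measured 0.0228 CPM in uninjured muscle, 29.7 at 1 dpi, 0.552 at 3 dpi and 0.1195 at 7 dpi (53.8-fold lower at 3 dpi than at 1 dpi), while its relatives Mt1 (3466 and 3150.1 CPM) and Mt2 (1798 and 2133 CPM) were level. Nnat, neuronatin, measured 22.7 CPM at 1 dpi and 1.28 at 3 dpi (17.7-fold lower), and Il1rl1, the receptor for IL-33, 13.8 CPM at 1 dpi and 1.39 at 3 dpi (9.95-fold lower), against 0.957 in uninjured muscle. Among genes of gene families, 0 of 13 mitochondrially encoded and 0 of 78 cytosolic ribosomal protein genes passed 2-fold in either direction, with medians of -0.63 and 0.28, and no test was run on them.

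Immediate early genes were not of 1 kind. Junb measured 64.5 CPM at 1 dpi and 254 at 3 dpi (1.98) and Fos 25.7 CPM at 1 dpi and 80.98 at 3 dpi (1.65), while Atf3 (-0.61) and Egr1 (-0.51) were lower by less than 2-fold. Among matrix proteases, Adamts4, an aggrecanase, had 12 UMIs at 1 dpi and 467 at 3 dpi (11.6-fold higher in CPM), and Mmp2 measured 38.4 CPM at 1 dpi and 124 at 3 dpi (3.22-fold), whereas the protease inhibitor Timp3 measured 66.3 CPM at 1 dpi and 50.04 at 3 dpi (-0.41). Of 12 hypoxia and metallothionein genes, 2 were at least 2-fold higher, close to the 14.8% of all genes, and none lower. The list median was 0.07 (-0.30 relative to TMM, a change of sign). Hif1a, the hypoxia factor, measured 33.1 CPM at 1 dpi and 107 at 3 dpi (3.24-fold). Adm, adrenomedullin, measured 5.01 CPM at 1 dpi and 14.03 at 3 dpi (2.801-fold). The growth factor Vegfa (0.96), the glucose transporter Slc2a1 (-0.20) and the other 8 stayed within 2-fold.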
